A study of Mus musculus with 2 samples.

Results

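Mir375 and the mir-7 genes Mir7b, Mir7-1 and Mir7-2 are miRNA genes known from endocrine and neuroendocrine cells. These 4 genes, out of the 2202 miRNA genes counted, were taken by name from GENCODE M21, with no filter on level. The genes and the lists set beside them were chosen with earlier results of these data known. The 4 genes were measured by microRNA-seq in adrenal gland from adult male mice of the strain labelled 5xFAD/CAST, aged 8 to 10 months. The 2 libraries were of RNA below 30 nucleotides and form 1 group. The name 5xFAD denotes a transgenic Alzheimer's disease model and CAST a wild-derived inbred strain. The labels do not say whether these animals carried the transgenes. Both libraries have the same donor record and different sample records, so the spread between replicates may be partly technical. There was no other tissue, genotype or treatment, and the values below are levels within the adrenal gland.

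A miRNA is cut from a hairpin precursor as a short strand from its 5′ or 3′ arm and guides the silencing complex to mRNAs that pair with its seed, bases 2 to 8. miR-375 was found in pancreatic islets, where it restrains insulin secretion, and it also occurs in the pituitary and in neuroendocrine cells of other organs. miR-7 is abundant in islets, pituitary and some neurons, and the circular RNA Cdr1as binds it. The adrenal gland holds neuroendocrine chromaffin cells in its medulla and steroid-making cells in its cortex. A library of the whole gland cannot tell fewer cells of a type from less RNA per cell, and mRNA markers of chromaffin cells were not measured here.

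The mature sequences show which reads could be told apart. All 4 genes were found in RefSeq (GRCm38.p6), and seeds are in capitals.
mmu-miR-375-5p: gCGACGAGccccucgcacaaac
mmu-miR-7a-5p: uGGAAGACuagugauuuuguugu
mmu-miR-7b-5p: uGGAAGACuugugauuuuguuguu
mmu-miR-7a-1-3p: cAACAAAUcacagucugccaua
mmu-miR-7a-2-3p: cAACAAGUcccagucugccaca
mmu-miR-7b-3p: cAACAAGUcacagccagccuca
The other Mir375 arm, miR-375-3p, had no mature entry there, so it is named only and its seed is not given. Counts are per gene, so they do not tell from which arm the Mir375 reads came. The 3 mir-7 genes share the 5p seed GGAAGAC, which no other gene among the 1058 with a mature RefSeq entry carries. The seed CGACGAG of miR-375-5p likewise occurs there in Mir375 alone. Mir7-1 and Mir7-2 both encode miR-7a-5p. Counted from the 5′ end, miR-7b-5p differs from miR-7a-5p by 1 substitution in 23 bases, A10U, outside the seed. On the 3p side, miR-7a-1-3p and miR-7a-2-3p differ by 3 substitutions, of which A7G lies in the seed. miR-7b-3p carries the same 3p seed as miR-7a-2-3p, AACAAGU, and differs from it by 4 substitutions outside the seed.

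The hairpins show where on each precursor those arms lie, with the arms of the RefSeq table in capitals.
Mir375 hairpin: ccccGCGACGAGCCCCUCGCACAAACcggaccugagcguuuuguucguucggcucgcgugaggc
Mir7b hairpin: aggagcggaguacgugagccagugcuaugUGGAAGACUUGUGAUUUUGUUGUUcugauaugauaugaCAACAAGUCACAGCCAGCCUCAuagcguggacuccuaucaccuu
Mir7-1 hairpin: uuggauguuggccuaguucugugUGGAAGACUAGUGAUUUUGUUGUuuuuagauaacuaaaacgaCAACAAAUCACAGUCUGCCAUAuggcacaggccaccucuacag
Mir7-2 hairpin: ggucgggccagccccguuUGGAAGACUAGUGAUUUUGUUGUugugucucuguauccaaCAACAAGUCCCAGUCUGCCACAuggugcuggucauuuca
Globally aligned over the whole hairpin, arms included, Mir7-1 and Mir7-2 were 68.8% identical, Mir7b and Mir7-1 66.7%, and Mir7b and Mir7-2 64.0%. The longest run common to Mir7-1 and Mir7-2 was 24 bases, the whole 5p arm and 1 base beyond it, while Mir7b shared no more than 14 bases in a row with either.

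These shared bases decide what a count can hold, because reads that mapped to several places were assigned to no gene. A read from the first base of miR-7a-5p needs 25 bases to differ from the other gene's hairpin, although the annotated strand has 23. The full miR-7a-5p strand is therefore not countable for either gene, and the counts of Mir7-1 and Mir7-2 are lower limits, made of reads that hold bases outside the shared run, such as 3p strands. Their own 3p arms differ from all other miRNA hairpins within 10 bases. Mir375 and Mir7b shared no 16-base window with any other miRNA hairpin. The Mir7b 5p strand does match Mir7-1 and Mir7-2 with 1 mismatch, and the mismatch setting of the alignment is not given in the sources used here. Matches elsewhere in the genome were not searched.

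**Figure D1:**
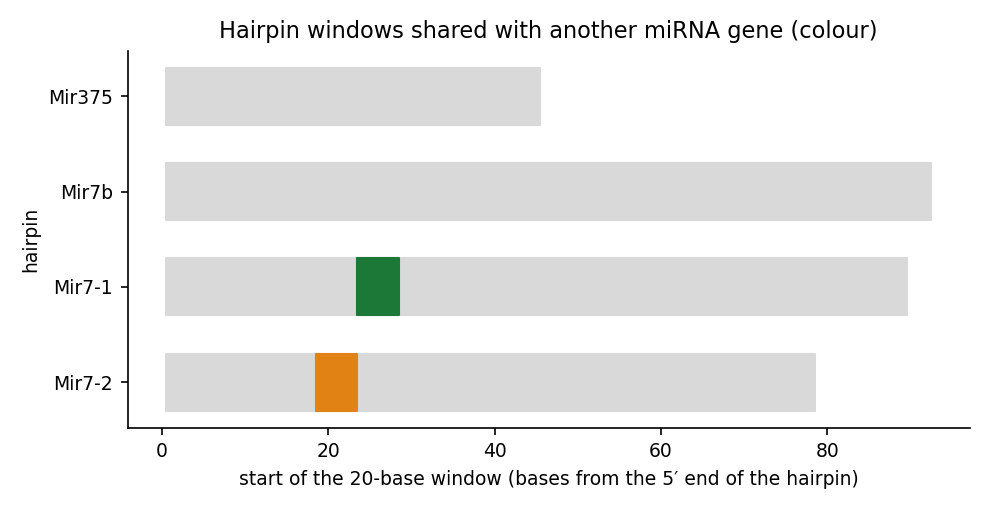
Each bar is a hairpin, drawn by the start position of every 20-base window from the 5′ end, with windows found in another miRNA hairpin in colour. Colour appears only for Mir7-1 (5 of 89 windows) and Mir7-2 (5 of 78 windows), at their common 5p arm, and Mir375 and Mir7b have none.

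The 4 genes lie on 4 chromosomes, with no other miRNA gene within 10000 bases of any of them. No gene on the opposite strand overlaps any of the 4. Mir375 (ENSMUSG00000065616.3) occupies chr1:74900658-74900721 on the minus strand of GRCm38, between the lens crystallin gene Cryba2, 7515 bases away, and the cilium gene Cfap65, 1350 bases away. Mir7b (ENSMUSG00000065491.1) occupies chr17:56242988-56243098 on the plus strand, 183 bases after the end of the long noncoding RNA gene AC026385.1. Mir7-1 (ENSMUSG00000065434.1) occupies chr13:58392779-58392886 on the minus strand, in an intron of Hnrnpk, which encodes a widely expressed RNA-binding protein. That intron is the last one in all 8 protein-coding transcripts of Hnrnpk that contain the hairpin. Mir7-2 (ENSMUSG00000065609.1) occupies chr7:78888277-78888373 on the plus strand, outside other genes, 7481 bases before Aen. Opposite-strand counts were 0 for all 4 genes in both libraries.

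By assigned reads, Mir375 was among the most abundant miRNA genes of the gland. It had 398294 reads in replicate 1 and 254305 reads in replicate 2, out of 6783227 and 3084602 reads on the sense strand of miRNA genes. Scaled to 1000000 such reads (CPM), that was 58717 CPM in replicate 1 and 82443 CPM in replicate 2, or 70580 ± 16777 CPM (SD, n = 2). Its share of these reads was 5.87% in replicate 1 (Wilson 95% interval 5.85 to 5.89) and 8.24% in replicate 2 (8.21 to 8.28). These intervals cover counting error only, and the gap between the libraries is far wider than either. Mir375 ranked 5 in replicate 1 and 2 in replicate 2. Reads that mapped to several places count for no gene, so genes that lose such reads can rank too low.

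Mir7b had the most assigned reads of the mir-7 genes. Full miR-7a-5p strands are assigned to neither Mir7-1 nor Mir7-2, so this does not order miR-7b against miR-7a. The level of Mir7b was 4535 CPM (30763 reads) in replicate 1 and 4423 CPM (13644 reads) in replicate 2. The mean of 4479 ± 79.1 CPM (SD, n = 2) placed it at rank 33 of all genes. Of the 334 genes detected above 2 CPM in both libraries, 301 had a lower mean.

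Mir7-1 and Mir7-2 were assigned few reads. Mir7-1, the copy within Hnrnpk, had 1696 reads or 250 CPM in replicate 1, and 720 reads or 233 CPM in replicate 2, with a mean of 242 ± 11.8 CPM (SD, n = 2) and rank 125. Mir7-2 had 765 reads or 113 CPM in replicate 1, and 440 reads or 143 CPM in replicate 2, with a mean of 128 ± 21.1 CPM and rank 167. Its mean exceeded that of 167 of the 334 detected genes. Both stood far above the floor of 3 reads, equal to 0.442 CPM in the deeper replicate 1 and to 0.973 CPM in replicate 2.

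**Figure D2:**
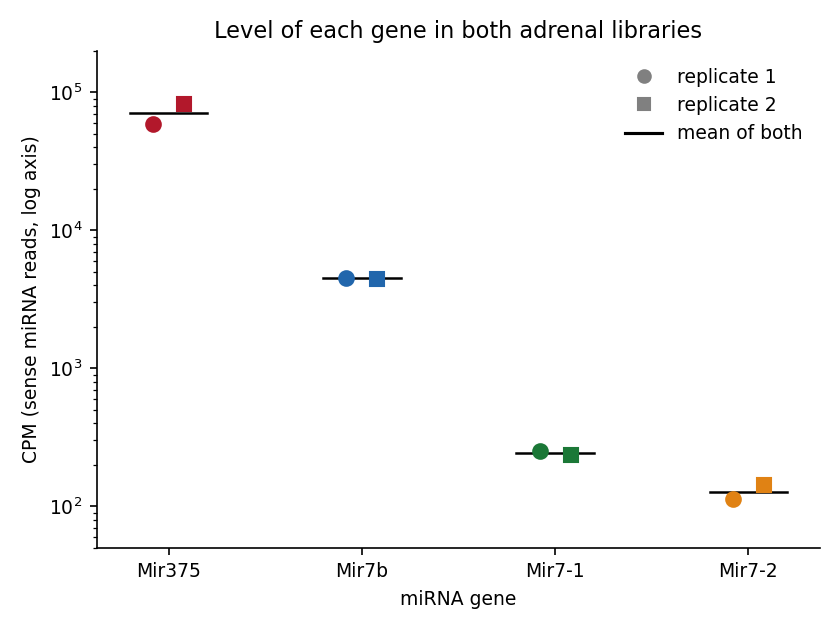
CPM on a log axis for each gene, with a circle for replicate 1, a square for replicate 2 and a line at their mean. The values descend from Mir375 (58717 and 82443) through Mir7b (4535 and 4423) and Mir7-1 (250 and 233) to Mir7-2 (113 and 143), and no gene's points reach those of the next.

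The order Mir375, Mir7b, Mir7-1, Mir7-2 held in both libraries. In each of the 6 pairs, the gap in both libraries exceeded the replicate difference of either gene. A read of a small RNA covers the whole strand, so CPM was not divided by length, but ligation and amplification capture some sequences better than others. The order is one of assigned reads, and for Mir7-1 and Mir7-2 it is not an order of transcription.

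Mir375 outnumbered the 3 mir-7 genes together by 12.0 to 1 in replicate 1 (exact 95% interval 11.9 to 12.1) and 17.2 to 1 in replicate 2 (16.9 to 17.5), a mean of 14.6 ± 3.67 (SD, n = 2). The intervals do not overlap, so this ratio differed between the libraries by more than read counting gives. It is a ratio of assigned reads, and its intervals do not cover the unassigned miR-7a-5p reads, which would lower it. Within the mir-7 genes the shares of Mir7b and Mir7-1 were steadier, and that of Mir7-2 was not. Mir7b held 92.6% of their assigned reads in replicate 1 (92.3 to 92.9) and 92.2% in replicate 2 (91.7 to 92.6). Mir7-1 held 5.10% (4.87 to 5.35) and 4.86% (4.53 to 5.22), and Mir7-2 held 2.30% (2.15 to 2.47) and 2.97% (2.71 to 3.26). The intervals of Mir7-2 do not overlap. Mir7b stood above Mir7-1 and Mir7-2 together by 12.1 ± 0.522 to 1 (mean and SD, n = 2). Unassigned miR-7a-5p reads would lower this ratio, and any reads that Mir7b lost would raise it.

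The miR-7a genes also differed from each other. Mir7-1 exceeded Mir7-2 by 2.22 to 1 in replicate 1 (2.03 to 2.42) and by 1.64 to 1 in replicate 2 (1.45 to 1.85). These intervals do not overlap. Since both genes lose the same 5p strand, how far these ratios follow 3p strands or longer 5p reads was not tested.

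Set against single genes, Mir375 was close to the top of the profile. The rule compares gaps in CPM, so a gene with widely spaced replicates can stay unordered though higher in both libraries. Of the 211 other genes averaging at least 10 CPM and sharing no 20 bases with another hairpin, Mir375 exceeded 206 beyond the replicate spread. It was below 1 and not ordered against Mir10a, Mir126a, Mirlet7b and Mirlet7i. Mir7b exceeded 180 of 211 such genes, was below 21 and was not ordered against 10, among them Mir26b at 19051 and 44353 CPM. By assigned reads, Mir7-1 exceeded 93 of 212 and was below 80, and Mir7-2 exceeded 77 and was below 100. The counts of Mir7-1 and Mir7-2 are lower limits, so being below 80 or 100 genes holds for assigned reads only. The closest rank neighbours of Mir375 were Mirlet7b, above it at 71944 ± 12351 CPM, and Mir23a, below it at 48684 ± 14212 CPM, and neither differed from it beyond the spread.

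By level in both libraries, the genes most like Mir375 were Mirlet7b, Mir10a and Mir23a, at distances of 0.111, 0.558 and 0.777 in the plane of the 2 log2(CPM + 1) values. For Mir7b they were Mirlet7f-2, Mir541 and Mir30e, at 0.285, 0.345 and 0.392. Those for Mir7-1 were Mir1843a, Mir381 and Mir15b, between 0.0745 and 0.124, and for Mir7-2 Mir130b, Mir1193 and Mir25, between 0.109 and 0.152. With 2 libraries this measure states a like level and a like replicate difference, and no more. The counts of Mir23a, Mirlet7f-2 and Mir1843a are lower limits, as each shares 20 bases with another hairpin. No gene was nearest to more than 1 of the 4, and none of the 12 was itself one of them.

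The replicate difference separated Mir375 from Mir7b. As log2(CPM + 1) of replicate 2 minus replicate 1, it was 0.49 for Mir375 (counting interval 0.48 to 0.50), −0.04 for Mir7b (−0.07 to −0.01, with −0.17 to 0.01 across the scalings tried), −0.10 for Mir7-1 (−0.23 to 0.03) and 0.34 for Mir7-2 (0.17 to 0.51). Across the 280 genes averaging at least 10 CPM, the median absolute difference was 0.28. Of these genes, 196 differed less than Mir375 and 17 differed less than Mir7b. Fisher's exact test (two-sided, on the reads, adjusted by Benjamini-Hochberg over the 280 genes) gave an adjusted p of 0.0235 for Mir7b, 0.162 for Mir7-1 and 0.000203 for Mir7-2. With that of Mir375, 3 of the 4 were under 0.05, beside 69.3% of all genes. None of the 4 also reached an absolute log2 difference of 1, beside 10.7% of all genes. This test compares the reads of 2 libraries, not animals or conditions.

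**Figure D3:**
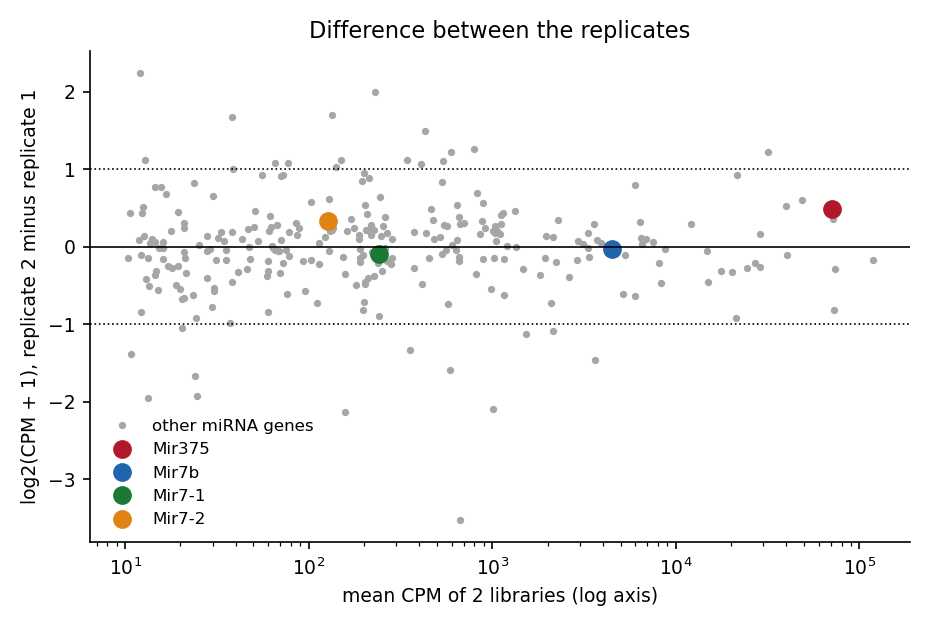
Difference in log2(CPM + 1), replicate 2 minus replicate 1, against mean CPM on a log axis for the 280 genes averaging at least 10 CPM, with dotted lines at a 2-fold difference. Mir375 (0.49) and Mir7-2 (0.34) lie above 0, Mir7-1 (−0.10) and Mir7b (−0.04, with −0.17 to 0.01 across the scalings tried) lie just below it, and all 4 are inside the dotted lines.

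Other miRNAs of endocrine and secretory cells were far lower than Mir375. Together the 4 genes held 6.36% of sense miRNA reads in replicate 1 (6.34 to 6.38) and 8.72% in replicate 2 (8.69 to 8.76), against 0.0610% and 0.0857% for a list of 9 other endocrine miRNA genes. Mir375 alone held 5.87% in replicate 1 and 8.24% in replicate 2. The 4 genes and the list were chosen with earlier results of these data known, so this contrast is a description only. Of the 9 listed genes, 8 were detected in both libraries. On average Mir129-2, Mir182 and Mir183 had 220, 200 and 129 CPM. These means lie between those of Mir7-1 (242 CPM) and Mir7-2 (128 CPM), both lower limits, and the rest of the list was lower. Mir129-2 had 199 CPM in replicate 1 and 241 CPM in replicate 2, although it shares 20 bases with Mir129-1 and is a lower limit. Mir182 and Mir183, processed from 1 transcript in sensory and endocrine cells, had 136 and 264 CPM and 102 and 156 CPM in replicates 1 and 2, while Mir96 of the same transcript had 6.63 and 3.24 CPM. Mir153, a neuroendocrine miRNA, had 41.6 CPM in replicate 1 and 89.2 CPM in replicate 2.

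The replicate differences of these other endocrine genes were mixed. Among the 7 averaging at least 10 CPM, 4 were higher and 3 lower in replicate 2. The median of their log2 differences was 0.28, beside 0.01 over the 280 genes and 0.15 over the 4 genes described here. Mir153 (log2 difference 1.08) was the 1 of 7 called by Fisher's exact test at an adjusted p under 0.05 and a 2-fold difference, beside 10.7% of all genes. It lost that call at 0.98 under TMM, 0.95 under DESeq2 size factors and 0.96 with all reads as the total. Mir182 stood at 0.95, Mir183 at 0.61 and Mir204, known from eye and islets, at −0.19.

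Markers of pancreas and gut, which also make miR-375, were near 0 or low. The epithelial Mir203 was above Mir7-1 and Mir7-2 by assigned reads, which for these 2 mir-7 genes are lower limits. The 4 pancreatic acinar genes, made in exocrine pancreas, summed to 8.85e-05% of reads in replicate 1 and 3.24e-05% in replicate 2. Their most abundant gene, Mir217, had 4 reads and 1 read, while Mir216b and Mir216c had 0 in both libraries. The gut list of Mir192, Mir194-1, Mir194-2 and Mir215 held 0.00469% and 0.00438%, led by Mir192 with 29.2 CPM in replicate 1 and 28.5 in replicate 2. Mir194-1 had 0 reads in both, and it shares 20 bases with Mir194-2. The epithelial list of 7 genes held 0.0432% and 0.0577%, mostly from Mir203, a skin miRNA, at 386 and 542 CPM. The mir-200 genes, which mark epithelia and are also present in islets, ranged from 1.78 CPM for Mir200a to 19.8 CPM for Mir200c on average.

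The neuronal list of 15 genes summed to 0.0888% of reads in replicate 1 and 0.126% in replicate 2. It was led by Mir137 at 713 and 1057 CPM. Of the 6 averaging at least 10 CPM, 1 was called between the replicates, beside 10.7% of all genes. That was Mir128-1, at a log2 difference of 1.675, called in every setting in which it was tested. Mir124a-1, Mir124a-2, Mir124a-3, Mir9-1 and Mir9-2 had 0 reads in both libraries. Of the 15 genes, 14 share 20 bases with another hairpin, as Mir7-1 and Mir7-2 do, so those zeros set no upper limit on their transcripts. Mir137 alone among the 15 is free of such a copy.

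**Figure D4:**
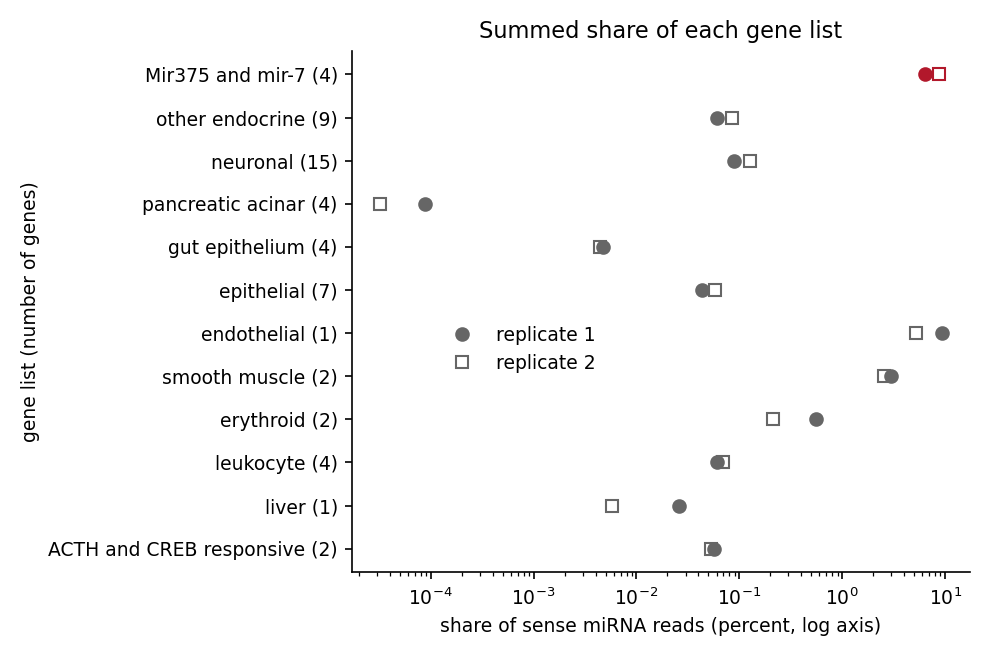
Summed share of sense miRNA reads on a log axis for Mir375 with the mir-7 genes (top, red) and for 11 lists of other genes, with a filled circle for replicate 1 and an open square for replicate 2. The red points at 6.36% and 8.72% overlap the range of the endothelial gene (9.26% and 5.25%) and lie above all other lists, and the pancreatic acinar list is lowest.

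Lists of other cell types, including liver, gave the frame for these shares. Mir126a, the endothelial marker, held 9.26% in replicate 1 and 5.25% in replicate 2. Its replicate difference of −0.82 was opposite in sign to that of Mir375. The smooth muscle genes Mir143 and Mir145a held 2.95% and 2.56% and the 4 leukocyte genes 0.0610% and 0.0693%. The erythroid list held 0.554% and 0.214%, with Mir451a at 5351 and 1949 CPM and Mir144 at 191 and 187 CPM. Mir132 and Mir212, induced by cAMP signalling downstream of adrenocorticotropic hormone, held 0.0563% and 0.0529%. The liver marker Mir122 held 0.0257% and 0.00577%, a log2 difference of −2.14. Mir122 and Mir451a (−1.46) were called between the replicates in every setting in which they were tested, beside 10.7% of the 280 genes. No other gene of the lists in this paragraph was called in the values above. The part of these cell types in the difference of Mir375 was not tested.

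The sequences of the 4 hairpins differed in base composition as well as level. The Mir375 hairpin of 64 bases was 67.2% G and C, above 95.0% of the 280 genes. Mir7b, with 111 bases, was 46.8% G and C, Mir7-1, with 108 bases, 41.7%, and Mir7-2, with 97 bases, 50.5%. Minimum free energies from RNAfold were −26.8 kcal/mol for Mir375, −35.0 for Mir7b, −46.8 for Mir7-1 and −40.5 for Mir7-2. Among the mir-7 hairpins, Mir7b had the most assigned reads and the least negative energy. With 4 genes these values are a description only.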

How the data were processed

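Small RNA of adrenal gland was sequenced in 2 libraries. The authors deposited raw read counts per miRNA gene for both strands, the gene's strand and the opposite strand, on mm10 with GENCODE M21, per the text deposited beside the tables. Not given in the sources used here were the aligner, trimming and mismatches allowed. The layout is that of STAR gene counts, from which the unnamed strand columns were read. Multimapping reads were assigned to no gene.

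All 2202 gene IDs matched GENCODE M21. Sense counts were scaled to 1000000 sense miRNA reads, with mapping lines left out. Sequences came from RefSeq (GRCm38.p6), folds from RNAfold 2.7.2 and alignments from Biopython 1.88. Shares carry Wilson and ratios exact (Clopper-Pearson) 95% intervals. Genes were ordered only if both libraries agreed and both gaps exceeded either replicate difference. Fisher's exact test (scipy 1.17.1) was adjusted over the 280 genes averaging at least 10 CPM. It was also run on simulated Poisson counts with planted changes. These held no other variation between libraries, so that run cannot show how the test treats replicate variation. Scaling with edgeR 4.0.16 TMM and DESeq2 1.42.0 size factors was an alternative. With 1 group there was no contrast. Named genes were the 4 members, the 3 nearest genes by level to each, rank neighbours, and up to 4 genes of each list. Members and lists were chosen with earlier results of these data known.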

Additional observations from a re-analysis of the deposited data

Results flagged for a closer look

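Reads that the gene counts leave out were numerous. Multimapping reads made up 30.3% of all reads in replicate 1 and 32.1% in replicate 2. They lie outside the gene counts and numbered 4001595 in replicate 1 and 2084009 in replicate 2. The tables do not name their genes, and how many are full-length miR-7a-5p reads from Mir7-1 and Mir7-2 was not tested.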

How the results depend on the processing

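Scaling set the level of the 4 genes. Ratios between them cannot change with a scaling factor, so those alternatives are no check of the ratios. With all reads as the total, Mir375 was at 34692 CPM, the 3 mir-7 genes together at 2399 CPM and the 4 genes at 3.71% of reads. With the column for both strands the mir-7 sum was 5445 CPM, and with other genes sharing 20 bases left out of the total it was 5578 CPM, against 4849 CPM in the values above. In that last alternative the replicate difference of Mir7b was 0.012 in place of −0.036, so its sign is not settled; it was −0.138 under TMM, −0.173 under DESeq2 size factors and −0.146 with all reads as the total. Across the 8 settings the log2 difference of Mir375 ranged from 0.35 to 0.54, that of Mir7-1 from −0.24 to −0.05 and that of Mir7-2 from 0.200 to 0.385. In each setting 0 of the 4 were called, beside 7.11% to 11.6% of the genes tested, so this does not set the 4 apart. Genes called between the replicates numbered 30, with 17 higher and 13 lower in replicate 2. They numbered 50 with no filter on low counts, where 703 genes were tested, and 19 among the 173 genes averaging at least 100 CPM. TMM scaling gave 12 higher and 17 lower, with the median difference of all genes at −0.09. DESeq2 size factors gave 8 higher against 17 lower, with that median at −0.12. These factors, 1.414 for replicate 1 and 0.707 for replicate 2, were computed with no filter on low counts. How far genes with few reads set them was not tested. With 1 replicate left out, Mir375 ranged from 58717 to 82443 CPM, the mir-7 sum from 4799 to 4898 CPM, the share of the 4 genes from 6.36% to 8.72%, the ratio of Mir375 to the mir-7 genes from 12.0 to 17.2 and that of Mir7b to its paralogs from 11.8 to 12.5. Calls between replicates need both libraries and could not be recomputed that way. No paired analysis was possible because there was 1 group. Depth limited Mir7-2 most, at 440 reads in the shallower library.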
